A study of Mus musculus with 24 samples.

Results

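The lysosome is the acidic compartment in which cells break down proteins, glycans and lipids taken up from outside or delivered by autophagy. Its soluble hydrolases are made in the endoplasmic reticulum, tagged in the Golgi and carried to the lysosome by sorting receptors, while heavily glycosylated membrane proteins line it and a proton pump acidifies it. Many lysosomal genes carry a short palindromic promoter element bound by the transcription factors TFEB, TFE3 and MITF, and cells that clear debris, such as macrophages and bone-resorbing osteoclasts, hold large amounts of lysosomal enzymes. Here 40 genes for lysosomal enzymes and membrane proteins were followed in the mouse aorta, chosen by name from the 32561 genes of the deposited table. They comprise 10 proteases and peptidases, 11 glycosidases, 4 sulfatases, 7 proteins that handle lipids and 8 membrane or other proteins, and all 40 were found in the table.

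The study measured RNA in 24 aortas of 129S1/SvlmJ mice, 4 in each of 6 groups, 1 library per aorta. Males and females with intact Bmp2 (Bmp2+/+), and males homozygous for the Bmp2 allele ∆UCS, were either homozygous for the Klotho allele Kl (Kl/Kl, labelled as renal disease) or controls labelled as having healthy renal function. Controls were Klotho+/Kl, except for 1 Bmp2+/+ male (replicate 1) that was Klotho+/+. Ages were 44 to 48 days in Bmp2+/+ control males, 45 to 48 in Bmp2+/+ Kl/Kl males, in ∆UCS control males and in ∆UCS Kl/Kl males, and 45 to 53 in both female groups. Klotho is a kidney-made co-receptor of the phosphate-lowering hormone FGF23, and mice that lack it have high blood phosphate and calcified arteries. Bmp2 encodes a secreted ligand that promotes bone formation. All mice came from heterozygous parents on 1 congenic background, and the homozygotes for Kl were smaller and weaker than the controls according to the breeding notes.

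In 2 libraries, Bmp2+/+ Kl/Kl male replicate 1 and Bmp2+/+ Kl/Kl female replicate 2, Xist and the Y-encoded Ddx3y were at the levels of the other sex than the label gives. These 2 libraries were left out of the fits unless stated, and their values are given beside the results. Kl itself was too low to check the genotypes, at no more than 0.0178 scaled TPM or about 30 reads in any library. Bmp2 lay at 0.314 to 0.375 in Bmp2+/+ control males and 0.244 to 0.446 in ∆UCS control males. Estimated depth was 20589000 to 61093000 reads per library, and mitochondrial genes took 40.2% to 61.2% of the TPM total. This share of TPM does not measure the part of the RNA, because the TPM was computed on genomic span, as described below. In the libraries fitted this share was 47.3% to 58.6% in control and 40.2% to 55.8% in Kl/Kl males, 52.2% to 59.99% and 44.9% to 54.8% in females, and 53.5% to 61.2% and 40.9% to 52.5% in ∆UCS males, where the groups did not overlap. Its part in the results was not tested. Smooth muscle markers were detected in every library.

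Of the 40 members, 35 passed the filter of at least 1 TPM in at least 4 samples and were tested among 9933 genes with limma on log2(scaled TPM + 1), where scaled TPM is the deposited TPM divided by a median-of-ratios factor of the library. The values show that the authors' TPM was computed on the genomic span of each gene, so it compares a gene between libraries and not genes with each other. A gene was called when its adjusted p was below 0.05. The members were chosen with earlier results of these data known, so the counts below describe them and do not test them as a set. In Kl/Kl against control aortas, 12 members rose in Bmp2+/+ males, 14 in Bmp2+/+ females and 5 in ∆UCS males, and 0 fell in any of them. Among all genes tested, 1.48% rose and 0.221% fell in males, 2.43% rose and 1.34% fell in females, and 0.926% rose and 0.745% fell in ∆UCS males. The median log2 change of the 35 members was 0.41, 0.49 and 0.15 in these strata, against −0.03, 0.01 and 0.06 over all genes. The 5 members called in all 3 strata, which share no library, were Cd68, Ctss, Gusb, Ctsa and Gpr137b. A further 6 (Ctsb, Ctsl, Lgmn, Gla, Fuca1 and Asah1) were called in both Bmp2+/+ strata, so that 11 of the 12 called in males and 11 of the 14 called in females were the same genes. Of the tested members, 6 (Ctss, Gla, Sgsh, Npc1, Laptm5 and Gpr137b) had fewer than 4 control samples at 1 TPM and passed the filter through the Kl/Kl samples. Among the other 29 tested, 8, 11 and 3 rose, with medians of 0.39, 0.45 and 0.14. Of all 7726 genes at 1 TPM in at least 4 control samples, 0.854%, 1.46% and 0.518% rose, with medians of −0.05, −0.04 and 0.03.

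Cd68, Ctss and Gusb remained called in each stratum whichever single library of the groups compared was left out, and so did Ctsb in males and Ctsa, Gla, Gpr137b, Ctsc and Lgmn in females. The other calls depended on single libraries. Without Bmp2+/+ Kl/Kl male replicate 4 only 4 members were called in males, without Bmp2+/+ Kl/Kl female replicate 3 the count in females was 8 of 14, and without any 1 of 7 of the 8 ∆UCS libraries (all but Kl/Kl replicate 4) the count in ∆UCS males was 3. With all 24 libraries as labelled, 0 members were called in each stratum, against 0% of all genes called higher, and Cd68 had a log2 change of 2.51 ± 0.63, 2.72 ± 0.63 and 2.64 ± 0.63 (SE) in males, females and ∆UCS males, with adjusted p = 0.422, 0.157 and 0.121. At an unadjusted p below 0.05 the same fit had 14, 16 and 8 members, against 7.95%, 13% and 16.3% of all genes. On the deposited TPM scale without the 2 libraries, 7, 14 and 2 members rose and 0 fell (Cd68 and Ctss in ∆UCS males), against 1.04%, 2.58% and 0.534% of all genes rising. The calls lost on that scale were those of Ctsa, Gla, Fuca1, Npc1 and Gpr137b in males and of Gusb, Ctsa and Gpr137b in ∆UCS males, and in females Npc2 was called in place of Hexa. That scale moved the median of all genes to 0.09, 0.29 and 0.26 and that of the members to 0.59, 0.83 and 0.40. Within the 2 library sets that the spelling of the library names shows, 1 member was called in males of set 1 (0.352% of all genes rose there) and 4 in set 2 (0.836%), where 1 Kl/Kl male library stood alone and was assumed to vary like the other groups. All female libraries were in set 2 (10 members and 2.93% of all genes rose there) and all ∆UCS libraries in set 1 (3 members and 0.715%), so the Bmp2 comparisons within set 1 use 2 Bmp2+/+ animals a group. The split of all called genes moved with the scaling, from 241 higher and 133 lower to 256 and 2 in females, and from 92 and 74 to 53 and 11 in ∆UCS males.

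**Figure D1:**
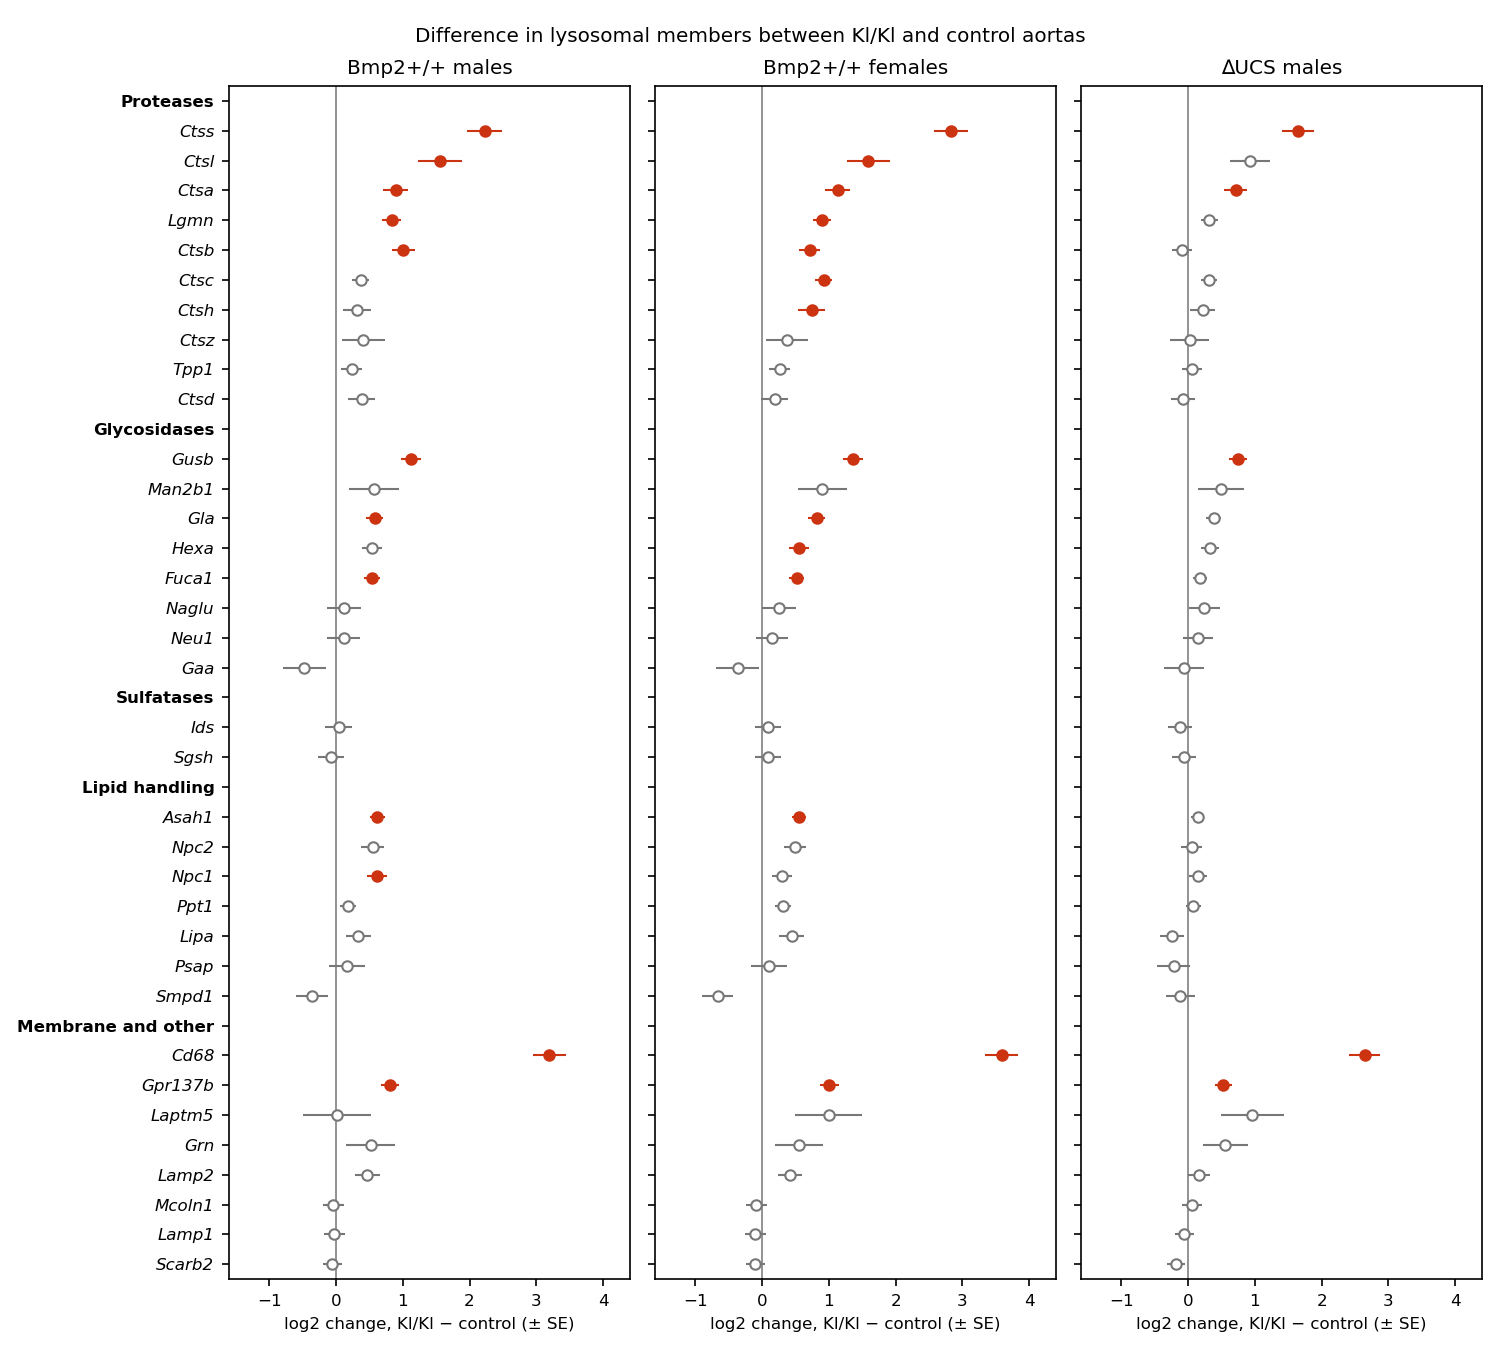
Log2 change (Kl/Kl minus control, ± SE, horizontal axis) of the 35 tested members, grouped by role, in Bmp2+/+ males, Bmp2+/+ females and ∆UCS males, from limma on log2(scaled TPM + 1) without the 2 libraries against their labelled sex. Filled red points passed an adjusted p of 0.05 (12, 14 and 5 members, all to the right of 0), open grey points did not.

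The promoters of members that rose and of members that did not were compared by letter, since the palindrome of the TFEB family is the element these genes are known to share. RefSeq windows (GRCm38.p6, 250 bases before to 50 after a transcript start) were at hand for 34 of the 40 members and 27025 genes. The element TCACGTG, searched on both strands, was in 10 of the 34 members (29.4%) and in 4.29% of all genes, and its full palindrome TCACGTGA, which contains it, in 4 members (11.8%) and 1.12% of genes. The 4 with the palindrome are shown here with it in capitals, ending at most 30 bases after the start; Ctsa and Gla were called in both Bmp2+/+ strata and Ctsd and Mcoln1 in none.
Ctsa (GRCm38 chr2:164833730-164833802, plus strand): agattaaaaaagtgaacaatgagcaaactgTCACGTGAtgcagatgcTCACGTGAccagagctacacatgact
Gla (GRCm38 chrX:134601163-134601255, minus strand): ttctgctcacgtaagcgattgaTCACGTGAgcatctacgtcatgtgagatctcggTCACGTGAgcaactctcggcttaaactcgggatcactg
Ctsd (GRCm38 chr7:142387889-142387956, minus strand): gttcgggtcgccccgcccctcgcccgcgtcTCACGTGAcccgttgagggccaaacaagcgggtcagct
Mcoln1 (GRCm38 chr8:3500443-3500510, plus strand): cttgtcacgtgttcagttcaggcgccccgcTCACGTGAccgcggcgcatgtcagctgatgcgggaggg
Ctsa and Gla each hold 2 copies of the palindrome and Ctsd and Mcoln1 1, but with 4 genes this is a description only. The other 6 members with TCACGTG were Lgmn, Gaa, Glb1, Lamp1, Naglu and Sgsh, of which only Lgmn was called in any stratum. The 2 members with the largest changes, Cd68 and Ctss, had no TCACGTG in their windows. The letters GAGGAAG, of the kind bound by the myeloid factor PU.1, were in 7 members (20.6%) and 15.4% of genes. Besides Ctss, these were Ctsc, Gla and Gusb, each called in some stratum, and Laptm5, Lipa and Man2b1, called in none. The letters stand in capitals (reverse strand, CTTCCTC) at the start of Ctss and are not in the Cd68 window. Only these exact letters were searched, so other sites for PU.1 were not looked for.
Ctss (GRCm38 chr3:95526536-95526815, plus strand): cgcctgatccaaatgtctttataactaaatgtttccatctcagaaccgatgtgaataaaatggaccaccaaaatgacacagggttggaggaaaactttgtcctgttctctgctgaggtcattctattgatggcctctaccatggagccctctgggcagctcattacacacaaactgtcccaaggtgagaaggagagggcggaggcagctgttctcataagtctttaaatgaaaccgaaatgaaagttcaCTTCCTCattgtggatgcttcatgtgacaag
Cd68 (GRCm38 chr11:69666141-69666420, minus strand): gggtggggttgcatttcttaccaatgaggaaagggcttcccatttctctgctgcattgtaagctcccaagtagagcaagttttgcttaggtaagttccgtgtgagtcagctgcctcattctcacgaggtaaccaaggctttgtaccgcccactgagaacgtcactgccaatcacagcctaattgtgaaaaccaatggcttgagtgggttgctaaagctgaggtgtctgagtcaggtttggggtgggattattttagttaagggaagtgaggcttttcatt

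Of the 10 proteases, 5 rose in males, 7 in females and 2 in ∆UCS males. Ctss (cathepsin S; ENSMUSG00000038642, mm39 chromosome 3, 95434097 to 95463715, plus strand), a cysteine protease abundant in antigen-presenting cells, changed most of this class. Ctss had 0.575, 0.278, 2.27 and 0.787 scaled TPM in control and 6.54, 8.90 and 8.63 in Kl/Kl males. In female aortas Ctss had 0.801, 0.456, 0.555 and 0.490 in controls and 8.32, 10.2 and 12.3 in Kl/Kl mice. For ∆UCS males, Ctss had 0.365, 0.939, 0.393 and 1.25 in controls and 5.53, 3.80, 5.37 and 3.01 in Kl/Kl animals. Every Kl/Kl library in the fit lay above every control library of its stratum, and the 2 libraries left out had 1.94 in the male and 0.469 in the female library. The log2 change of Ctss was 2.23 ± 0.26 (SE) in males, 2.83 ± 0.26 in females and 1.65 ± 0.24 in ∆UCS males (adjusted p = 4.27e-05, 1.2e-06 and 0.000957). These changes are on the log2(scaled TPM + 1) scale, which understates those of low genes: the ratio of mean scaled TPM was 8.21 in males, 17.9 in females and 6.01 in ∆UCS males.

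Ctsl (cathepsin L; ENSMUSG00000021477, mm39 chromosome 13, 64507151 to 64518705, minus strand), an endopeptidase of most tissues, rose in both Bmp2+/+ strata. Ctsl had 25.0, 14.4, 16.1 and 14.0 scaled TPM in control and 37.7, 56.9 and 66.0 in Kl/Kl males. In female aortas Ctsl had 19.8, 15.6, 15.1 and 14.1 in controls and 34.3, 72.1 and 51.1 in Kl/Kl mice. For ∆UCS males, Ctsl had 16.8, 18.5, 20.7 and 18.1 in controls and 62.4, 22.6, 45.2 and 25.9 in Kl/Kl animals. The groups did not overlap in any stratum, the ∆UCS controls lay close together while the ∆UCS Kl/Kl libraries spread widely, and the libraries left out had 14.5 in the male and 18.2 in the female library. On the log2 scale Ctsl had a change of 1.56 ± 0.32 (SE; adjusted p = 0.0135) in males, 1.59 ± 0.32 (adjusted p = 0.00736) in females and 0.92 ± 0.30 (adjusted p = 0.102) in ∆UCS males. It was not called in ∆UCS males. The call in males was lost without Kl/Kl replicate 4 or control replicate 3 and without the 3 libraries of steep GC slope described further on, and the call in females without Kl/Kl replicate 3.

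Ctsa (protective protein/cathepsin A; ENSMUSG00000017760, mm39 chromosome 2, 164674793 to 164682953, plus strand), a carboxypeptidase that also stabilises β-galactosidase and neuraminidase in a complex, rose in all 3 strata. Ctsa had 11.7, 9.83, 12.5 and 7.90 scaled TPM in control and 23.7, 16.2 and 22.3 in Kl/Kl males. In female aortas Ctsa had 7.16, 9.26, 8.82 and 8.82 in controls and 21.6, 24.3 and 14.6 in Kl/Kl mice. For ∆UCS males, Ctsa had 10.4, 9.75, 9.72 and 10.7 in controls and 19.7, 17.2, 19.0 and 13.8 in Kl/Kl animals. Its ranges did not overlap in any stratum, and the libraries left out, with 9.49 in the male and 9.95 in the female library, lay close to the controls. The log2 change of Ctsa was 0.89 ± 0.19 (SE) in males, 1.13 ± 0.19 in females and 0.71 ± 0.17 in ∆UCS males (adjusted p = 0.0165, 0.00117 and 0.0445). On the deposited scale it was called in females only, with adjusted p = 0.190 in males and 0.114 in ∆UCS males. The span of Ctsa overlaps Pltp and Neurl2 on the other strand, and the use of strand in counting is not given.

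Ctsb (cathepsin B; ENSMUSG00000021939, mm39 chromosome 14, 63359911 to 63383373, plus strand) and Lgmn (legumain, an asparaginyl endopeptidase that processes other cathepsins) rose in both Bmp2+/+ strata. Ctsb had 28.8, 34.5, 30.1 and 28.5 scaled TPM in control and 62.6, 75.0 and 53.1 in Kl/Kl males. In female aortas Ctsb had 29.8, 35.2, 36.9 and 36.2 in controls and 50.6, 56.9 and 64.2 in Kl/Kl mice. For ∆UCS males, Ctsb had 47.6, 40.6, 42.3 and 35.2 in controls and 32.1, 40.2, 44.2 and 38.7 in Kl/Kl animals. The groups were apart in both Bmp2+/+ strata and overlapped in ∆UCS males, where controls and Kl/Kl animals lay at about the same level. Its log2 change was 1.01 ± 0.17 (SE; adjusted p = 0.00172) in males and 0.71 ± 0.16 (adjusted p = 0.0211) in females, and in ∆UCS males it was −0.09 ± 0.15 (adjusted p = 0.792). The female call was not made with limma voom on estimated reads, nor without the 3 libraries of steep GC slope. Lgmn had 1.34, 1.40, 1.07 and 1.39 in control and 3.18, 2.64 and 3.32 in Kl/Kl males. In female aortas Lgmn had 1.36, 1.35, 1.08 and 1.35 in controls and 2.78, 4.72 and 2.53 in Kl/Kl mice. For ∆UCS males, Lgmn had 1.39, 1.62, 1.61 and 1.55 in controls and 1.94, 2.07, 2.73 and 1.95 in Kl/Kl animals. Its groups did not overlap in any stratum, with the narrowest gap in ∆UCS males. On the log2 scale Lgmn had a change of 0.83 ± 0.14 (SE; adjusted p = 0.00215) in males, 0.90 ± 0.14 (adjusted p = 0.000523) in females and 0.31 ± 0.13 (adjusted p = 0.198) in ∆UCS males.

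Ctsc (dipeptidyl peptidase I, which activates the serine proteases of neutrophils and cytotoxic cells) and Ctsh, an aminopeptidase, were called in females alone. Ctsc had 1.29, 0.888, 0.704 and 0.825 scaled TPM in female controls and 2.51, 2.69 and 2.67 in female Kl/Kl mice, with a log2 change of 0.92 ± 0.13 (SE; adjusted p = 0.000198), against 0.37 ± 0.13 (adjusted p = 0.187) in males. The difference between the sexes in this change was 0.55 ± 0.18 (95% interval 0.16 to 0.94, unadjusted p = 0.00801) and did not pass the threshold (adjusted p = 0.9999), so a difference between the sexes is not shown. Ctsh changed by 0.74 ± 0.20 in females (adjusted p = 0.0466) and its call was lost without any 1 of 6 of the 7 female libraries. The aspartic protease Ctsd was the member of this class whose change, averaged over the 3 strata, was nearest to 0. Ctsd had 58.7, 60.8, 51.1 and 52.2 scaled TPM in control and 87.6, 59.2 and 73.6 in Kl/Kl males. In female aortas Ctsd had 43.1, 69.2, 63.3 and 53.7 in controls and 69.9, 74.5 and 51.6 in Kl/Kl mice. For ∆UCS males, Ctsd had 74.0, 58.1, 68.6 and 60.3 in controls and 49.9, 61.4, 70.1 and 67.0 in Kl/Kl animals. Its groups overlapped in each stratum, and its log2 estimate was 0.39 ± 0.20, 0.19 ± 0.20 and −0.07 ± 0.18. Ctsz and Tpp1 were not called either, with estimates of 0.02 to 0.41 and of 0.06 to 0.27.

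**Figure D2:**
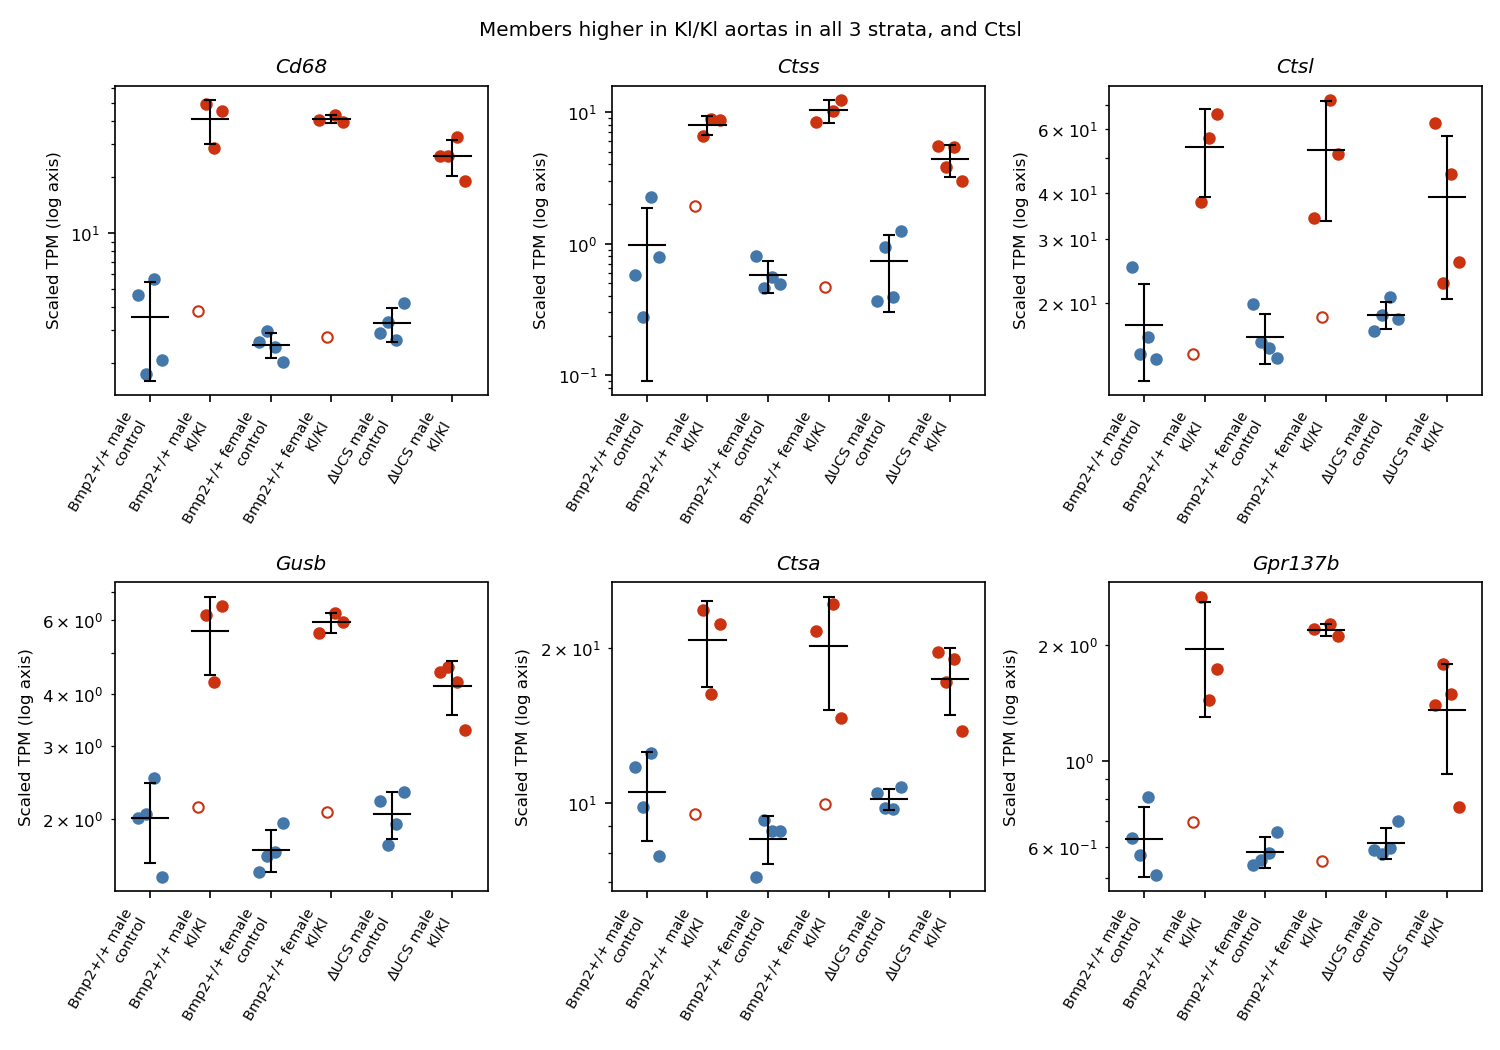
Scaled TPM (log axis) of 6 members in each library by group. Filled points are libraries in the fit, open points the 2 libraries against their labelled sex, and black bars the mean ± SD of the filled points (n = 3 in the Bmp2+/+ Kl/Kl groups, otherwise 4). The open points lie at or close to the level of the controls for all 6 genes.

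Among the 8 glycosidases tested, 3 rose in males (Gusb, Gla and Fuca1), 4 in females (these and Hexa) and 1 in ∆UCS males (Gusb). Gusb (β-glucuronidase, which removes glucuronic acid from glycosaminoglycans; ENSMUSG00000025534, mm39 chromosome 5, 130017852 to 130031891, minus strand) rose in each stratum. Gusb had 2.02, 2.06, 2.51 and 1.45 scaled TPM in control and 6.15, 4.27 and 6.48 in Kl/Kl males. In female aortas Gusb had 1.50, 1.64, 1.67 and 1.96 in controls and 5.60, 6.25 and 5.93 in Kl/Kl mice. For ∆UCS males, Gusb had 2.22, 1.74, 1.95 and 2.32 in controls and 4.50, 4.63, 4.26 and 3.28 in Kl/Kl animals. The groups did not overlap in any stratum, and the libraries left out had 2.14 in the male and 2.08 in the female library. The log2 change of Gusb was 1.13 ± 0.15 (SE) in males, 1.36 ± 0.14 in females and 0.75 ± 0.13 in ∆UCS males (adjusted p = 0.000147, 7.07e-06 and 0.00648). On the deposited scale it was not called in ∆UCS males (adjusted p = 0.0722).

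Gla (α-galactosidase A, which degrades globotriaosylceramide; ENSMUSG00000031266, mm39 chromosome X, 133488898 to 133501875, minus strand) lay under 1 scaled TPM in every control library, at 0.332, 0.404, 0.373 and 0.424 in males, 0.242, 0.336, 0.376 and 0.469 in females and 0.391, 0.464, 0.419 and 0.372 in ∆UCS males. In Kl/Kl aortas it had 1.54, 0.762 and 0.964 in males, 1.41, 1.38 and 1.37 in females and 0.845, 0.993, 1.10 and 0.486 in ∆UCS males, above the controls in each stratum. On the log2 scale Gla had a change of 0.58 ± 0.13 (SE; adjusted p = 0.0196) in males, 0.82 ± 0.12 (adjusted p = 0.000432) in females and 0.38 ± 0.11 (adjusted p = 0.0839) in ∆UCS males. On estimated reads, where low values are not damped by the added 1, limma voom gave 1.50 ± 0.23, 1.91 ± 0.23 and 0.98 ± 0.21, with adjusted p = 0.000992, 5.26e-05 and 0.0254, and thus called it in all 3 strata. The call in males on the log2(scaled TPM + 1) scale was lost without any 1 of 4 libraries (control replicates 1 and 3, Kl/Kl replicates 2 and 4) and with correction for GC.

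Hexa, a subunit of β-hexosaminidase A, was called in females alone. Hexa had 1.93, 1.75, 2.63 and 1.44 scaled TPM in control and 4.08, 2.56 and 3.39 in Kl/Kl males. In female aortas Hexa had 1.30, 1.68, 1.74 and 1.87 in controls and 3.44, 2.62 and 2.57 in Kl/Kl mice. For ∆UCS males, Hexa had 2.16, 1.88, 1.68 and 2.35 in controls and 2.51, 3.19, 2.30 and 3.14 in Kl/Kl animals. Only the female groups were apart, and its log2 change of 0.55 ± 0.15 there had an adjusted p of 0.0468, which any 1 of 7 libraries left out took past 0.05. Fuca1 (α-fucosidase) rose by 0.54 ± 0.12 on the log2 scale in males (adjusted p = 0.0189) and by 0.52 ± 0.11 in females (adjusted p = 0.0160), and its estimate in ∆UCS males was 0.18 ± 0.11 (adjusted p = 0.418). The sialidase Neu1 was nearest to 0 by the same measure. Neu1 had 4.16, 4.02, 5.63 and 3.20 in control and 5.74, 3.39 and 5.27 in Kl/Kl males. In female aortas Neu1 had 2.38, 4.21, 4.41 and 3.99 in controls and 5.92, 4.68 and 2.52 in Kl/Kl mice. For ∆UCS males, Neu1 had 4.49, 5.24, 4.15 and 4.72 in controls and 6.61, 6.55, 4.77 and 3.56 in Kl/Kl animals. Its groups overlapped in every stratum. The α-mannosidase Man2b1 had estimates of 0.57 ± 0.37, 0.90 ± 0.37 and 0.49 ± 0.34 without passing the test. Naglu (0.12, 0.25 and 0.24) and the acid α-glucosidase Gaa (−0.47, −0.37 and −0.06) were not called.

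Of the 4 sulfatases, the 2 tested were not called in any stratum, and 0 had an unadjusted p below 0.05. Ids (iduronate-2-sulfatase, which acts on heparan and dermatan sulfate) was the nearer of them to 0 on average. Ids had 2.54, 3.26, 1.65 and 2.22 scaled TPM in control and 3.17, 1.74 and 2.41 in Kl/Kl males. In female aortas Ids had 2.00, 2.35, 2.33 and 3.11 in controls and 3.28, 2.65 and 2.06 in Kl/Kl mice. For ∆UCS males, Ids had 2.58, 3.32, 2.54 and 2.69 in controls and 1.96, 3.41, 3.03 and 1.71 in Kl/Kl animals. Its groups overlapped throughout, and its log2 estimates were 0.04 ± 0.20, 0.08 ± 0.20 and −0.12 ± 0.18. Sgsh, a heparan sulfate sulfatase, had estimates of −0.08, 0.09 and −0.06.

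The 5 members below the filter (Glb1, Idua, Manba, Galns and Arsb) lay under 1 TPM in every library and were compared with two-sided exact permutation tests, 25 in all, in which the smallest possible p is 0.0286. Manba (β-mannosidase) had 0.129 ± 0.0160 scaled TPM (SD, n = 4) in control and 0.228 ± 0.0389 (n = 3) in Kl/Kl males, and 0.118 ± 0.0178 and 0.258 ± 0.0113 in females, with exact p = 0.0286 in both (adjusted over the 25 tests, 0.179). In ∆UCS males it had 0.158 ± 0.0127 and 0.181 ± 0.0243, with exact p = 0.143. Galns, a sulfatase of keratan and chondroitin sulfate, had exact p = 0.143 in males, 0.0286 in females and 0.0286 in ∆UCS males, where Kl/Kl means were 0.192, 0.222 and 0.203 against 0.102, 0.0839 and 0.102 in controls. On estimated reads all 40 members could be tested, and limma voom called 13 higher in males, 11 in females and 6 in ∆UCS males, against 1.36%, 2.06% and 0.741% of 22137 genes. Of the 12, 14 and 5 members called on log2(scaled TPM + 1), 12, 9 and 5 were called by both tests, those lost in females being Asah1, Ctsb, Ctsh, Fuca1 and Hexa. Called by limma voom alone were Gla in ∆UCS males, Manba in males (0.79 ± 0.17, SE) and females (1.04 ± 0.17), and Galns in females (1.32 ± 0.32). For Glb1 (β-galactosidase), Idua and Arsb neither test passed its threshold in any stratum. The exact test cannot show the absence of a change, since even its smallest possible p of 0.0286 came to 0.179 after adjustment.

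Of the 7 members that handle lipids, 2 rose in males (Asah1 and Npc1), 1 in females (Asah1) and 0 in ∆UCS males, where 0 had an unadjusted p below 0.05 and limma voom called 0. Asah1 (acid ceramidase; ENSMUSG00000031591, mm39 chromosome 8, 41793234 to 41827811, minus strand) rose in both Bmp2+/+ strata. Asah1 had 1.07, 1.03, 0.895 and 0.991 scaled TPM in control and 1.85, 2.18 and 2.15 in Kl/Kl males. In female aortas Asah1 had 1.56, 1.14, 1.18 and 1.17 in controls and 1.80, 2.59 and 2.60 in Kl/Kl mice. For ∆UCS males, Asah1 had 1.12, 1.25, 1.31 and 1.27 in controls and 1.27, 1.55, 1.78 and 1.31 in Kl/Kl animals. The ranges were apart in both Bmp2+/+ strata and overlapped in ∆UCS males. The log2 change of Asah1 was 0.62 ± 0.11 (SE) in males, 0.55 ± 0.11 in females and 0.14 ± 0.10 in ∆UCS males (adjusted p = 0.00322, 0.00586 and 0.494). Its call was lost in males without Kl/Kl replicate 4 and in females without Kl/Kl replicate 3 or with limma voom (adjusted p = 0.0531). Npc1 is the membrane protein that passes cholesterol out of the lysosome. Npc1 had 0.890, 0.880, 0.643 and 0.500 in control and 1.61, 1.86 and 1.53 in Kl/Kl males. In female aortas Npc1 had 0.668, 0.958, 0.884 and 1.06 in controls and 1.20, 1.80 and 1.02 in Kl/Kl mice. For ∆UCS males, Npc1 had 0.960, 0.783, 0.729 and 1.07 in controls and 1.15, 1.43, 1.29 and 0.570 in Kl/Kl animals. It was called in males, the only stratum in which its groups were apart (0.62 ± 0.15, adjusted p = 0.0426) but not in females (0.30 ± 0.15, adjusted p = 0.282), and the male call was lost without any 1 of 5 libraries and with correction for GC.

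Psap, the precursor of the saposins that present sphingolipids to hydrolases, was nearest to 0 on average in the lipid class. Psap had 36.6, 43.7, 35.9 and 26.3 scaled TPM in control and 51.8, 35.1 and 35.8 in Kl/Kl males. In female aortas Psap had 20.2, 40.9, 34.8 and 41.6 in controls and 44.6, 37.7 and 26.8 in Kl/Kl mice. For ∆UCS males, Psap had 51.5, 44.3, 38.1 and 48.4 in controls and 44.8, 47.3, 40.02 and 27.1 in Kl/Kl animals. The groups overlapped in every stratum. Npc2, the soluble partner of Npc1, had estimates of 0.55 ± 0.17 (adjusted p = 0.125), 0.49 ± 0.17 (adjusted p = 0.111) and 0.05 ± 0.16. Lipa (lysosomal acid lipase) and Ppt1 had 0.33 and 0.18 in males, 0.45 and 0.32 in females, and −0.24 and 0.08 in ∆UCS males. Smpd1 (acid sphingomyelinase) had the lowest estimate of all members in females, −0.66 ± 0.23 (adjusted p = 0.120), with −0.36 in males and −0.12 in ∆UCS males.

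Membrane and other proteins split into Cd68 and Gpr137b, called in all 3 strata, and 6 that were called in none. Cd68 (macrosialin, a LAMP-family glycoprotein of macrophage lysosomes; ENSMUSG00000018774, mm39 chromosome 11, 69555039 to 69556980, minus strand) had the largest change of all members on the log2(scaled TPM + 1) scale. By the ratio of mean scaled TPM it was first in males (11.6) and ∆UCS males (7.90). In females Ctss had the larger ratio, 17.9 against 16.4 for Cd68. Cd68 had 4.62, 1.75, 5.69 and 2.07 scaled TPM in control and 49.2, 28.7 and 45.3 in Kl/Kl males. In female aortas Cd68 had 2.60, 2.97, 2.46 and 2.04 in controls and 40.4, 43.4 and 39.6 in Kl/Kl mice. For ∆UCS males, Cd68 had 2.89, 3.34, 2.67 and 4.22 in controls and 25.9, 26.0, 32.7 and 19.0 in Kl/Kl animals. No Kl/Kl library in the fit came near a control. The means were 3.53 ± 1.93 (SD, n = 4) and 41.1 ± 10.9 (SD, n = 3) in males, 2.52 ± 0.385 (SD, n = 4) and 41.2 ± 1.99 (SD, n = 3) in females, and 3.28 ± 0.689 (SD, n = 4) and 25.9 ± 5.60 (SD, n = 4) in ∆UCS males. The libraries left out had 3.83 in the male and 2.75 in the female library. On the log2 scale Cd68 had a change of 3.19 ± 0.25 (SE; adjusted p = 3.57e-07) in males, 3.59 ± 0.24 (adjusted p = 5.5e-08) in females and 2.64 ± 0.23 (adjusted p = 2.13e-06) in ∆UCS males. Within the library sets the change in males was 2.66 in set 1 and 3.99 in set 2, the second resting on 1 Kl/Kl library.

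Gpr137b (ENSMUSG00000021306, mm39 chromosome 13, 13532205 to 13568600, minus strand), a multi-pass protein of the lysosomal membrane linked to mTORC1 signalling, rose in all 3 strata. Gpr137b had 0.633, 0.572, 0.810 and 0.508 scaled TPM in control and 2.66, 1.44 and 1.73 in Kl/Kl males. In female aortas Gpr137b had 0.539, 0.555, 0.577 and 0.658 in controls and 2.19, 2.26 and 2.10 in Kl/Kl mice. For ∆UCS males, Gpr137b had 0.588, 0.577, 0.597 and 0.700 in controls and 1.39, 1.78, 1.49 and 0.763 in Kl/Kl animals. The groups did not overlap, although 1 ∆UCS Kl/Kl library stood close to its controls, and the libraries left out had 0.694 in the male and 0.551 in the female library. The log2 change of Gpr137b was 0.81 ± 0.14 (SE) in males, 1.01 ± 0.14 in females and 0.53 ± 0.13 in ∆UCS males (adjusted p = 0.00269, 0.000133 and 0.0427). On the deposited scale it was called in females only (adjusted p = 0.0558 in males and 0.109 in ∆UCS males). Mcoln1, a calcium channel of the lysosomal membrane, was nearest to 0 on average in this class. Mcoln1 had 1.28, 1.36, 1.17 and 0.833 in control and 1.83, 0.704 and 0.974 in Kl/Kl males. In female aortas Mcoln1 had 0.819, 1.52, 1.37 and 1.40 in controls and 1.20, 1.27 and 0.946 in Kl/Kl mice. For ∆UCS males, Mcoln1 had 1.48, 1.20, 1.15 and 1.27 in controls and 1.46, 1.69, 1.29 and 1.05 in Kl/Kl animals. Its groups overlapped throughout. The main structural glycoproteins of the membrane were not called: Lamp1 had estimates of −0.02, −0.10 and −0.06, Lamp2 by 0.47, 0.42 and 0.16, and Scarb2, the receptor that carries glucocerebrosidase, by −0.05, −0.10 and −0.18. On the deposited scale Lamp1 had 0.16, 0.34 and 0.23, Scarb2 0.07, 0.21 and 0.02 and Mcoln1 0.08, 0.17 and 0.24, so the sign of these small estimates depended on the scaling. Laptm5, a transmembrane protein of blood cells, varied among libraries more than any other member (SE 0.46 to 0.51), and the progranulin gene Grn had 0.52 ± 0.37, 0.55 ± 0.36 and 0.55 ± 0.34.

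Markers of macrophages moved with these results. The summed level of 15 macrophage markers, none of which is a member, was 24.3 to 69.6 scaled TPM in Bmp2+/+ control males and 163 to 202 in Kl/Kl males, 25.6 to 35.3 and 177 to 239 in females, and 33.5 to 49.2 and 112 to 138 in ∆UCS males, and none of the 15 was at 0 in any library in the fit. Of the 9 that passed the filter, 5 rose in males, 8 in females and 5 in ∆UCS males. The shares of all genes that rose were 1.48%, 2.43% and 0.926%. How many of the 9 reached the filter only through Kl/Kl samples is not given here. All 15 markers could be tested with limma voom, where 10 passed in males, 11 in females and 4 in ∆UCS males. The 2 libraries left out had sums of 44.4 and 37.1. Because the TPM does not compare genes with each other, these and the following sums compare libraries and not cell types. Summed neutrophil markers were 4.04 to 12.3 and 13.3 to 63.1 in males, 3.05 to 20.7 and 22.8 to 48.2 in females, and 1.33 to 8.68 and 9.16 to 33.2 in ∆UCS males, with Ly6g at 0 in at least 1 library of 4 groups. The 6 osteoclast markers were low, with sums of 0.818 to 0.960 and 1.56 to 2.73 in males, 0.780 to 1.32 and 1.62 to 2.03 in females, and 0.797 to 1.25 and 0.972 to 1.88 in ∆UCS males, where alone the groups overlapped. The calcitonin receptor Calcr was at 0 in at least 1 library of 5 groups. The 1 osteoclast marker that passed the filter was not called, and limma voom on estimated reads called 1 of 4 tested, Dcstamp, a fusion protein of osteoclasts and macrophages, higher in each stratum (adjusted p = 3.52e-05, 1.12e-05 and 0.000382).

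Markers of tissue around the vessel also differed between some groups. Airway epithelium markers, 8 in number, summed to 535 to 1902 scaled TPM in control and 460.4 to 2012 in Kl/Kl males, 369 to 1541 and 2382 to 2664 in females, and 9.41 to 906 and 781 to 2563 in ∆UCS males, so that the groups were apart in females only. The 2 libraries left out had 879 and 288. Of the 7 tested, the airway genes Reg3g and Scgb3a1 rose in females (3.23 ± 0.62 and 3.26 ± 0.78, SE) and in ∆UCS males (3.34 ± 0.57 and 3.53 ± 0.72), and 0 were called in Bmp2+/+ males. Adipocyte markers summed to 1940.0 to 2084 in control and 901 to 1814 in Kl/Kl females, and fibroblast markers to 63.2 to 79.4 and 100.8 to 101.2, without overlap. The adipocyte sums overlapped in males (1178 to 2194 and 1022 to 2059) and in ∆UCS males (1710.0 to 2408 and 698 to 2184), as did the fibroblast sums (64.0 to 83.7 and 60.6 to 115 in males, 62.6 to 108 and 43.0 to 114 in ∆UCS males). Cardiomyocyte markers summed to 176 to 1027 and 160.5 to 2212 in males, 196 to 317 and 255 to 3303 in females, and 32.8 to 796 and 55.8 to 2898 in ∆UCS males. Of the 7 adipocyte, 8 fibroblast and 6 cardiomyocyte markers tested, 0 were called. In bulk aorta, more cells of a type and more RNA per cell cannot be told apart, and the part of these cell types, macrophages included, in the changes of the members was not tested.

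Members rich in GC were low in 3 libraries compared with the others of their groups. In each library the slope of gene-centred log2 values on transcript GC content, per 10 percentage points, was taken over the tested genes. It was −0.41 in Bmp2+/+ Kl/Kl male replicate 3, −0.47 in Kl/Kl female replicate 4 and −0.26 in control female replicate 1, and between −0.17 and 0.21 in the other 21. The 10 tested members richest in GC (54.7% to 59.8%, among them Naglu, Gaa, Grn, Laptm5 and Psap) had a median centred value of −0.39, −0.49 and −0.57 in these 3 libraries. The 10 poorest in GC (38.7% to 46.3%, among them Ctsc, Asah1, Ctsl and Ctss) had 0.23, 0.58 and −0.15. In the other fitted libraries of these groups, they had 0.24 and 0.12, 0.20 and 0.50, and −0.13 to −0.10. The GC-poor members thus did not clearly set these libraries apart. With a linear correction for GC, added after the data were seen, 11, 14 and 5 members were called in males, females and ∆UCS males. In males Gla and Npc1 were lost and Hexa was gained, and in the other strata the called genes were the same. Without the 3 libraries, an alternative also added then, 13, 14 and 5 were called, and 10, 13 and 5 of these were also called with them. Ctsl and Npc1 were lost in males and Ctsb in females, and Hexa was gained in males. Without these libraries Man2b1 changed by 1.06 ± 0.26 in males and 1.12 ± 0.27 in females and Grn by 0.99 ± 0.23 in males, and these passed the test (adjusted p = 0.0431, 0.0225 and 0.0372).

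**Figure D3:**
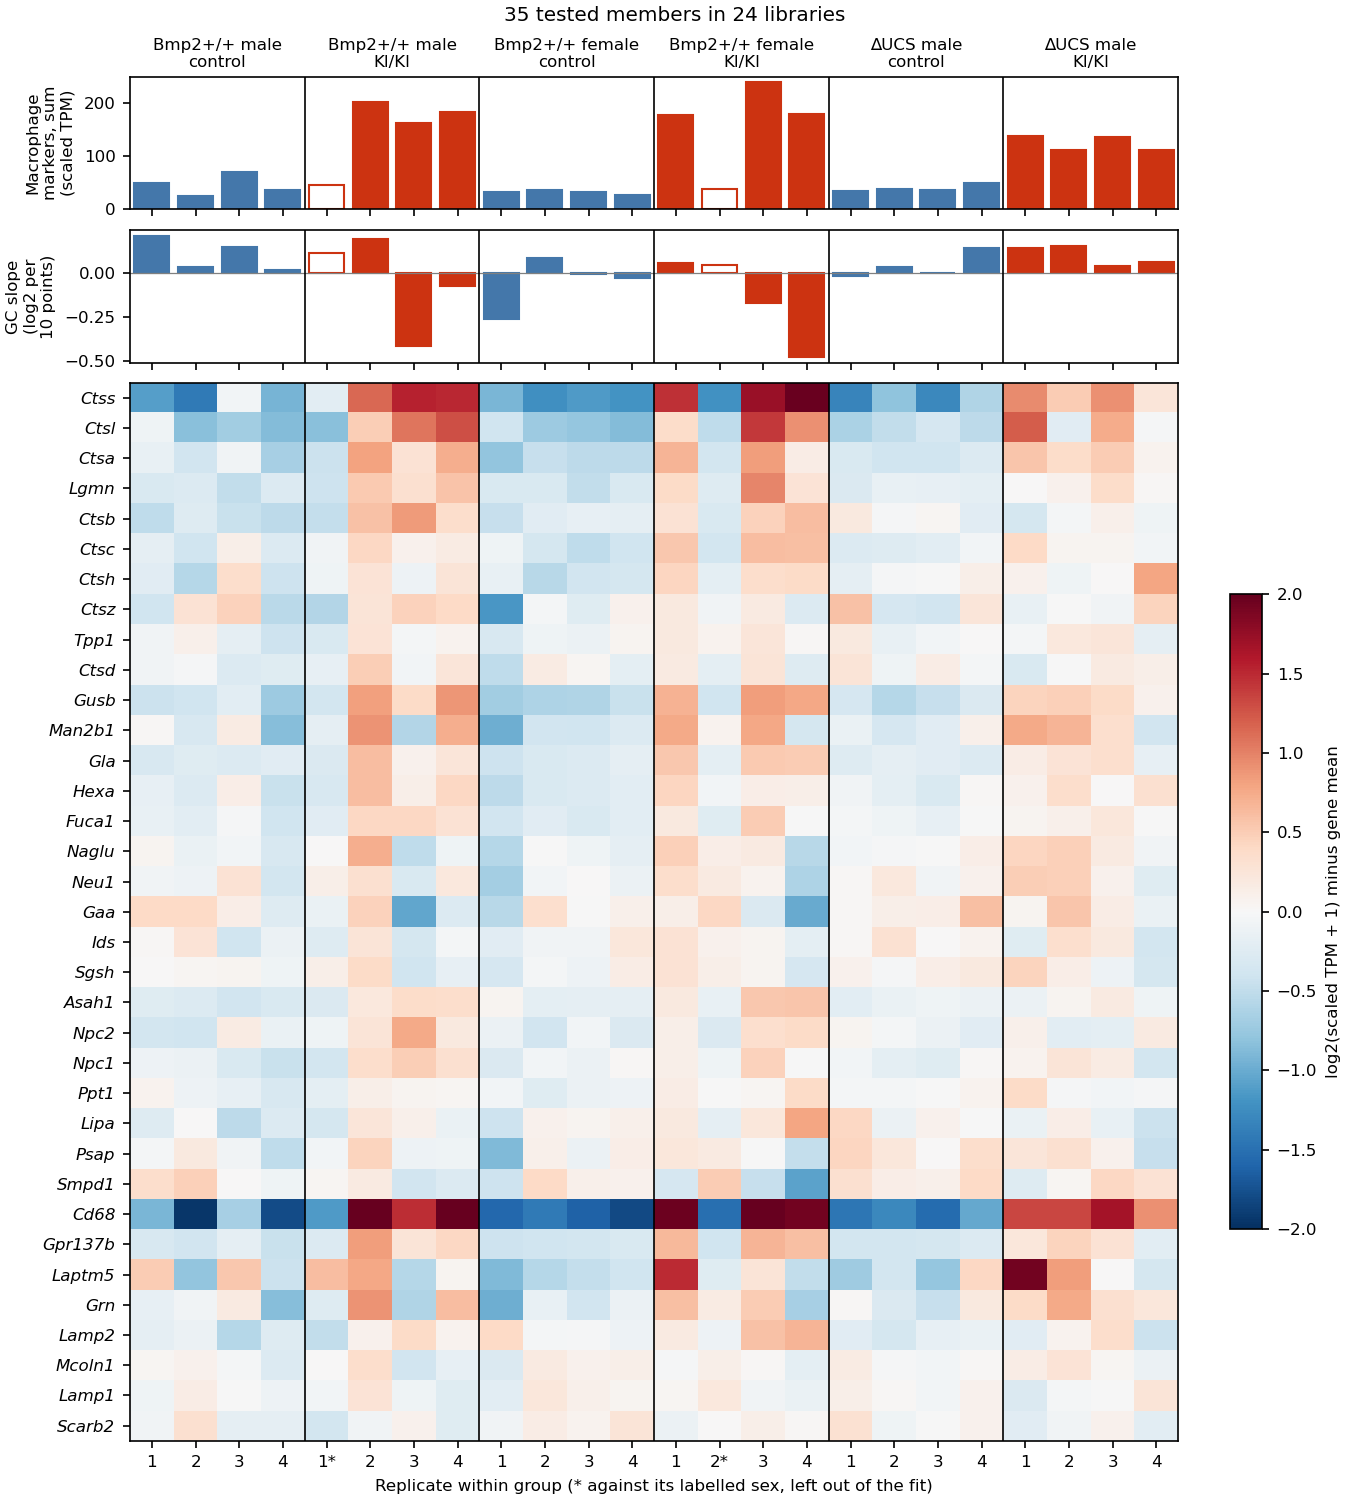
Summed macrophage markers (scaled TPM, top), GC slope (log2 per 10 percentage points of GC, middle) and log2(scaled TPM + 1) of the 35 tested members minus each gene's mean over the 22 libraries in the fit (colour, clipped at −2 and 2), for all 24 libraries. Rows follow role and columns follow group; open bars and asterisks mark the 2 libraries against their labelled sex, whose columns look like those of the controls. GC-rich members such as Gaa, Naglu and Grn are low in the 3 libraries of steep negative slope.

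Other lysosomal genes rose in part. Of 35 further hydrolases and cofactors tested, 8 rose in males, 6 in females and 6 in ∆UCS males. Of all genes, 1.48%, 2.43% and 0.926% rose, and the list medians were 0.20, 0.21 and 0.05. This list and those in the next paragraph were chosen with earlier results of these data known, so the counts are a description only. Gpnmb, a transmembrane glycoprotein of phagocytes, changed by 3.56 ± 0.31 (SE), 3.73 ± 0.31 and 2.71 ± 0.29, from means of 0.153, 0.280 and 0.160 scaled TPM in controls to 13.0, 16.0 and 7.50 in Kl/Kl aortas. Ctsk, the collagen-degrading cathepsin of osteoclasts, changed by 2.93 ± 0.26, 3.07 ± 0.25 and 1.71 ± 0.23. Lyz2, the lysozyme of myeloid cells, changed by 2.35 ± 0.40, 3.17 ± 0.40 and 2.12 ± 0.37, and the tetraspanin Cd63 by 1.27 ± 0.22, 1.43 ± 0.22 and 0.89 ± 0.20. All 4 passed the test in each stratum. Of the genes counted, 2 in each stratum, Gpnmb and Slc11a1, reached the filter only through the Kl/Kl samples. The 1 gene of this list that fell was Pcyox1, in ∆UCS males (−0.84 ± 0.18), named after its value was seen.

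Of 17 tested subunits and partners of the vacuolar proton pump, 2 rose in each Bmp2+/+ stratum and 1 in ∆UCS males. Of all genes, 1.48%, 2.43% and 0.926% rose in males, females and ∆UCS males. Atp6v0d2, a pump subunit of osteoclasts and macrophages that reached the filter only through the Kl/Kl samples, had mean scaled TPM of 0.00682, 0.0198 and 0.00484 in controls and 1.33, 1.90 and 0.613 in Kl/Kl aortas, with log2 changes of 1.20 ± 0.14, 1.49 ± 0.14 and 0.66 ± 0.13. Atp6ap2, an accessory protein also known as the prorenin receptor, changed by 0.66 ± 0.12 in males and 0.69 ± 0.12 in females, and had an estimate of 0.44 ± 0.11 in ∆UCS males, where it was not called. With limma on log2(scaled TPM + 1), 0 genes were called among 19 for sorting to the lysosome, 14 for transcriptional and mTORC1 control, 7 protease inhibitors and 17 autophagy genes. At an unadjusted p below 0.05 these lists had 2, 3, 2 and 3 genes in males, 1, 1, 4 and 1 in females and 2, 0, 1 and 1 in ∆UCS males, against 14.3%, 19.2% and 17% of all genes. Limma voom on estimated reads called 1 gene in them, Tfec, a TFE-family factor of macrophages below the filter of the main test, in males (2.43 ± 0.58, adjusted p = 0.0366) and females (2.47 ± 0.59, adjusted p = 0.0275), with 1.23 ± 0.52 (adjusted p = 0.229) in ∆UCS males. Tfe3, the 1 TFEB-family gene that passed the filter, was not called. Below the filter, limma voom gave Mitf 1.125 ± 0.34, 1.01 ± 0.34 and 0.41 ± 0.31 in males, females and ∆UCS males (adjusted p = 0.12, 0.12 and 0.53). Tfeb had −1.03 ± 0.52, −0.71 ± 0.51 and 0.18 ± 0.43 in the same test and was not called either.

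The Bmp2 genotype was compared within males. These comparisons share libraries with those above, so they are not independent of them. Between ∆UCS and Bmp2+/+ control males, 0 members were called, against 0% of all genes, and 1 member had an unadjusted p below 0.05, against 1.85% of all genes higher at that level. Between ∆UCS and Bmp2+/+ Kl/Kl males 0 members were called (0% of all genes), while 10 had an unadjusted p below 0.05, all lower in ∆UCS, against 2.01% of all genes lower at that level. Limma voom likewise called 0 members in both. The estimate was negative for 26 of the 35 members in Kl/Kl males, with a median of −0.18 against 0.06 over all genes, and it was positive for 26 of 35 in controls, with a median of 0.04 against −0.03. On the deposited scale the control median turned to −0.12, with all genes at −0.17, and the Kl/Kl median was −0.24, with all genes at −0.01.

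Ctsb had the smallest p in both comparisons. It had 47.6, 40.6, 42.3 and 35.2 scaled TPM in ∆UCS control males, above the 28.8, 34.5, 30.1 and 28.5 of Bmp2+/+ controls, and 32.1, 40.2, 44.2 and 38.7 in ∆UCS Kl/Kl males, below the 62.6, 75.0 and 53.1 of Bmp2+/+ Kl/Kl males. The difference between the genotypes was 0.38 ± 0.17 (SE; unadjusted p = 0.0410, adjusted p = 0.998) in controls and −0.72 ± 0.17 (unadjusted p = 0.000568, adjusted p = 0.875) in Kl/Kl males. In controls Lipa and Asah1 followed, with 0.38 ± 0.20 and 0.18 ± 0.11. Lipa had 1.95, 2.55, 1.46 and 1.93 in Bmp2+/+ and 3.73, 2.27, 2.76 and 2.52 in ∆UCS controls, and 3.16, 2.78 and 2.22 and 2.24, 2.87, 2.19 and 1.63 in the Kl/Kl males, overlapping in both. In Kl/Kl males Cd68 and Ctss followed, with −0.81 ± 0.26 (95% interval −1.35 to −0.27) and −0.85 ± 0.27 (95% interval −1.42 to −0.28). Their values, given above, overlapped for Cd68 and did not for Ctss. The macrophage marker sums of these groups, 163 to 202 in Bmp2+/+ and 112 to 138 in ∆UCS Kl/Kl males, did not overlap either. The part of these markers in the differences was not tested. In control males, smooth muscle markers summed to 136 to 297 scaled TPM in Bmp2+/+ and 350 to 485 in ∆UCS, without overlap. Airway markers summed to 535 to 1902 and 9.41 to 906, with a median log2 difference of −2.14. Of the markers tested in these 2 lists, 0 were called between the control groups. Their part in the differences between the controls was not tested either.

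The difference in the Klotho effect between ∆UCS and Bmp2+/+ males was tested as an interaction. No member passed (0% of all genes did), limma voom called 0 too, and 7 had an unadjusted p below 0.05, all with a smaller change in ∆UCS, against 3.35% of all genes lower at that level. The smallest p belonged to Ctsb, with −1.10 ± 0.23 (95% interval −1.58 to −0.63, unadjusted p = 0.000116, adjusted p = 0.780), Asah1, with −0.48 ± 0.15 (interval −0.79 to −0.17), and Lgmn, with −0.52 ± 0.19 (interval −0.92 to −0.12). For Cd68 the interaction was −0.55 ± 0.34 (interval −1.25 to 0.16) and for Ctss −0.58 ± 0.35 (interval −1.32 to 0.17). The lower count of calls in ∆UCS males is therefore not shown to be a different response. Of the interaction with sex, 0 members passed (0% of all genes; 0 by limma voom) and 1, Ctsc, had an unadjusted p below 0.05, against 1.19% of all genes higher in females at that level. Ctss and Npc1 came next, with 0.60 ± 0.37 (interval −0.17 to 1.38) and −0.32 ± 0.21 (interval −0.76 to 0.12).

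**Figure D4:**
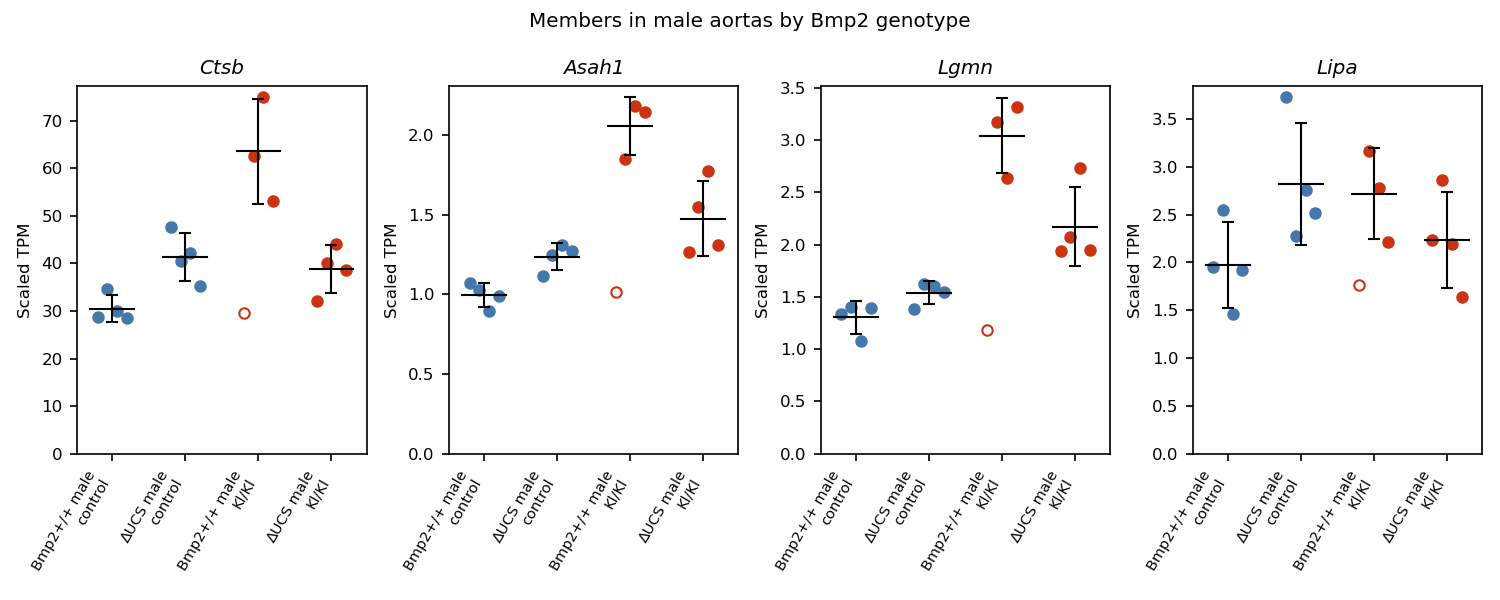
Scaled TPM (linear axes from 0) of Ctsb, Asah1, Lgmn and Lipa in the 4 male groups. Filled points are libraries in the fit, the open point the Kl/Kl male library against its labelled sex, and black bars the mean ± SD of the filled points (n = 3 in Bmp2+/+ Kl/Kl males, otherwise 4). Ctsb is apart between the genotypes in both pairs of groups, higher with ∆UCS in controls and lower in Kl/Kl males.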

How the data were processed

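Polyadenylated RNA of 24 flash-frozen aortas was sequenced from strand-preserving libraries, per the labels' protocols. The authors deposited 1 table of TPM values for 32561 genes, naming Partek and mm39 in the submitters' processing notes. How reads were aligned, which annotation was used, how multi-mapping reads were handled and whether counting used strand is not given in the sources used here. Tested on the values, gene lengths in the deposited TPM are genomic spans and a constant of 0.0001 reads was added to every gene, so that the lowest values give the worth of 1 read: 73.0% of low values came out within 0.05 of a whole number of reads, which were used as estimated reads for limma voom only. The member with the fewest reads in a library had about 44.

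Deposited TPM was divided by a median-of-ratios factor over 4381 genes. Genes with at least 1 TPM in at least 4 samples (9933) were tested on log2(scaled TPM + 1) with limma 3.58.1 in R 4.3.3 (trended moderation, 6 group means and library set, 22 libraries, Benjamini-Hochberg adjustment over all genes tested, threshold 0.05). The library set was read from the spelling of library names; nothing states that it is a batch. The 5 members below the filter had exact permutation tests (scipy 1.17.1). The scripts (Python 3.11.15, numpy 2.4.6, pandas 2.3.3, matplotlib 3.10.9) were tested on simulated data. No column of the table was left unused and no 2 libraries were identical.

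The members and lists were chosen with earlier results of these data known. In each role class, values by library are given for up to 3 called members with the largest absolute change, averaged over the 3 Klotho comparisons, and for the tested member whose average is nearest to 0; in the Bmp2 comparisons and the interactions for the 3 members of smallest p; and in each list for up to 4 called genes with the largest change. Ctsb, Lgmn, Ctsc and a few others were described beyond this rule after their values were seen. Alternatives were the deposited scale, all libraries as labelled, a pseudocount of 0.1, no filter or 5 TPM, no library set, single library sets, a replicate block, limma voom, leaving out each library and, added after the data were seen, GC correction and leaving out 3 libraries of steep GC slope. GC content came from GENCODE transcripts matched by gene ID (99.4% of tested genes, all 40 members). Promoter sequences are RefSeq windows of GRCm38.p6, another build than that of the table, matched by symbol.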

Additional observations from a re-analysis of the deposited data

Results flagged for a closer look

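In 5 of the 76 groups of 4 libraries examined for the 19 members with values by library, 1 library stood apart from the other 3 by more than Dixon's critical value for 4 samples; chance alone gives about 1 such group in 20. Asah1 was high in Bmp2+/+ control female replicate 1, at 1.56 scaled TPM against 1.14 to 1.18 in the other controls, and Lipa was low in the same library, at 1.66 against 2.67 to 2.82. This library is 1 of the 3 with a steep GC slope. Lgmn was low in Bmp2+/+ control female replicate 3, at 1.08 against 1.35 to 1.36. Lgmn was high in ∆UCS Kl/Kl male replicate 3, at 2.73 against 1.94 to 2.07. Gpr137b was high in ∆UCS control male replicate 4, at 0.700 against 0.577 to 0.597.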

How the results depend on the processing

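No estimate of a called member changed sign under any alternative run, and the cause of each lost call was not tested unless the setting itself removed genes or libraries. Against 12, 14 and 5 members called in Bmp2+/+ males, Bmp2+/+ females and ∆UCS males, the deposited scale gave 7, 14 and 2, and all 24 libraries as labelled gave 0, 0 and 0 on either scale. A filter of 5 TPM, which left 18 members to test, gave 6, 7 and 4, and no filter 12, 14 and 3. Library set 1 alone gave 1 in males and 3 in ∆UCS males, and set 2 alone 4 in males, where 1 Kl/Kl library stood alone and was assumed to vary like the other groups, and 10 in females. Leaving out 1 library at a time gave 4 to 12 in males, 8 to 14 in females and 3 to 6 in ∆UCS males. A pseudocount of 0.1 gave 11, 14 and 5, and no library set 12, 14 and 5. Limma voom gave 13, 11 and 6 of 40, of which 12, 9 and 5 are among the calls above, and a GC correction 11, 14 and 5, of which 10, 14 and 5 are. The comparisons between Bmp2 genotypes and both interactions called 0 members in each alternative run, single libraries left out included. A replicate block gave 11, 12 and 3. The calls lost were Npc1 in males, Ctsh and Hexa in females and Ctsa and Gpr137b in ∆UCS males. Same-numbered libraries did not deviate together (correlations across genes from −0.48 to 0.34), so the replicate numbers do not pair the samples. Pairing by age or library name was not examined, and the fits take no account of it. All 40 members, those below the filter included, had at least about 44 estimated reads in every library.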
